A study of Homo sapiens with 6 samples.

Results

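The genes described here are splicing factors and RNA-binding proteins, taken by symbol alone: the SR proteins (SRSF followed by a number), the heterogeneous nuclear ribonucleoproteins (HNRNP), the SF3A and SF3B subunits, the small nuclear ribonucleoprotein genes SNRPA to SNRPG, the numbered PRPF and RBM genes, and U2AF. They number 107 of the 17918 genes in the table, with 12 SRSF, 22 HNRNP, 9 SF3A or SF3B, 11 SNRP, 13 PRPF, 4 U2AF and 36 RBM genes. Gene expression was measured by RNA sequencing in 6 libraries of KMS11, a human cell line of multiple myeloma, a cancer of plasma cells. A short hairpin RNA (shRNA) against CRIP1, a small LIM domain protein, was expressed in 3 of them, labelled as CRIP1 knockdown. The other 3 had a scrambled shRNA and are labelled as wild type. Neither group is labelled with any other treatment, and the growth medium is the same for both. The study asked what CRIP1 does in multiple myeloma. The sources used here do not say how many hairpins were used, whether a line is 1 clone or a pool, or whether the replicates are separate cultures, so every p-value rests on a spread between libraries that may be technical.

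Pre-mRNA splicing removes introns in steps. The U1 particle binds the start of the intron, and the U2AF heterodimer marks its end. The U2 particle, with the SF3A and SF3B complexes, then binds the branch site, and the tri-snRNP of U4, U6 and U5 joins before catalysis. A ring of Sm proteins forms the core of most of these particles. SR proteins bind exons and mostly favour their inclusion, while many hnRNP proteins bind introns or exons and often oppose it. SR protein genes are themselves known for alternative exons that lead their transcripts to nonsense-mediated decay. RBM is a naming group for proteins with an RNA recognition motif, and its members share no single function.

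The libraries held 16971454 to 18005318 estimated counts each. Across genes, the log2 counts scaled by library total correlated (Pearson's r) at 0.995 to 0.996 within groups and at 0.921 to 0.923 between groups. CRIP1 had 127, 129 and 134 TPM (transcript abundance scaled for length to a common library sum) in the CRIP1 shRNA libraries, against 2791, 3327 and 3174 TPM in the scramble libraries. That was 4.2% of the scramble level, with a log2 fold change of -4.71 (SE 0.06, edgeR adjusted p = 6.15e-22, and a two-sided exact permutation p of 0.1, the smallest that 3 against 3 libraries allow). Marker genes of other cell types also separated the groups. The 12 erythroid markers summed to 743 to 750 TPM in the CRIP1 shRNA libraries, against 3.86 to 5.66 TPM in the scramble libraries, where 10 of them, among them HBG1, HBG2, HBE1, HBA1, HBA2, HBZ, GATA1, ALAS2 and RHAG, had 0 counts. The 7 epithelial markers summed to 86.5 to 93.2 TPM in CRIP1 shRNA libraries and 12.6 to 16.3 TPM in scramble libraries, with KRT19 at 0 in the scramble libraries. The 11 plasma cell markers summed to 3937 to 4197 TPM with CRIP1 shRNA, against 8602 to 9057 TPM with scramble, and of 10 tested 3 rose and 7 fell. Most of the difference in the sum was JCHAIN, the joining chain of secreted antibodies, with a mean of 1789 TPM in CRIP1 shRNA cells and 6443 TPM in scramble cells. XBP1 fell too, at 560 TPM with CRIP1 shRNA and 773 TPM with scramble, whereas IRF4 (257 TPM with CRIP1 shRNA and 179 TPM with scramble) and TNFRSF17 (1032 TPM with CRIP1 shRNA and 761 TPM with scramble) rose. The 6 myeloid markers summed to 7.18 to 7.84 TPM in CRIP1 shRNA libraries and 0.94 to 1.27 TPM in scramble libraries. The 7 T and NK cell markers summed to 1.63 to 2.47 TPM with CRIP1 shRNA and 0.77 to 1.17 TPM with scramble. That rise was CD3D alone, with 19 counts over the CRIP1 shRNA libraries and 0 over the scramble libraries. The other genes of that list had means at or below those of scramble, and 0 of the 7 had enough counts for edgeR. The fibroblast and endothelial markers summed to 6.15 to 6.9 TPM with CRIP1 shRNA and 8.42 to 9.19 TPM with scramble. Within that last list COL1A2 rose, with 660 counts over the CRIP1 shRNA libraries and 0 over the scramble libraries, while COL1A1 (8 counts with CRIP1 shRNA and 189 with scramble) and PDGFRB (173 counts with CRIP1 shRNA and 1001 with scramble) fell. The nuclear RNAs MALAT1 and NEAT1, listed as signs of RNA quality, were not analysed here. These marker differences lie between the same groups of libraries as every comparison below, and their part in those results was not tested. The labels do not say how the identity of the cells was checked, and a difference in origin between the cells of the groups cannot be told apart from an effect of the shRNA in any fold change below. In bulk RNA, fewer cells of a type and less RNA per cell cannot be told apart.

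Of the 107 genes, 104 had enough counts to be tested. A gene is called higher or lower here when its adjusted p in edgeR's quasi-likelihood test, corrected by Benjamini and Hochberg over all 12612 genes tested, is under 0.05. At this threshold 77.6% of all genes tested were called, 39.4% higher and 38.1% lower with CRIP1 shRNA. Against that background, 78 of the 104 genes were called (75%), of which 34 rose (32.7%) and 44 fell (42.3%). The median log2 fold change was -0.01 over the 104 genes and 0.01 over all genes. Most changes were small: the median absolute log2 fold change was 0.26 for the 104 genes, against 0.41 for all genes. At least 2-fold, 1 gene rose, RBM20 at very low counts, and 5 fell, SRSF3, SNRPA, SRSF2, HNRNPA3 and HNRNPA2B1, where 10% of all genes rose and 8.06% fell by as much. At least 1.5-fold, 7 rose and 15 fell, where 18.2% of all genes rose and 17.1% fell.

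The direction of the small changes depended on the scale. In limma's test of log2(TPM + 1), all genes had a median of 0.12. On that scale 49 of the genes were called higher and 32 lower, where limma called 77.4% of all genes, 47.5% higher and 29.9% lower. After a trend on GC content had been taken out of each library, 33 were called higher and 53 lower, where 78.7% of all genes were called, 37.6% higher and 41% lower. The TPM values of the groups did not overlap for 81 of the 104 genes (77.9%), with 49 above and 32 below scramble, where 78.5% of all genes did not overlap, 48.2% above and 30.3% below. Of the genes called by edgeR, 26 were called higher and 32 lower under all 3 scalings, and none was called in opposite directions. Together the genes were abundant. Their median scramble level was 95.6 TPM, against 17.8 TPM for all genes tested, and 67 of them (64.4%) lay in the top 25% of scramble TPM. Their summed level overlapped between groups, at 19878, 19104 and 19614 TPM with CRIP1 shRNA and 19990, 19111 and 19563 TPM with scramble. The differences lay between families and between single genes, as the plot of fold changes by family shows.

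**Figure D1:**
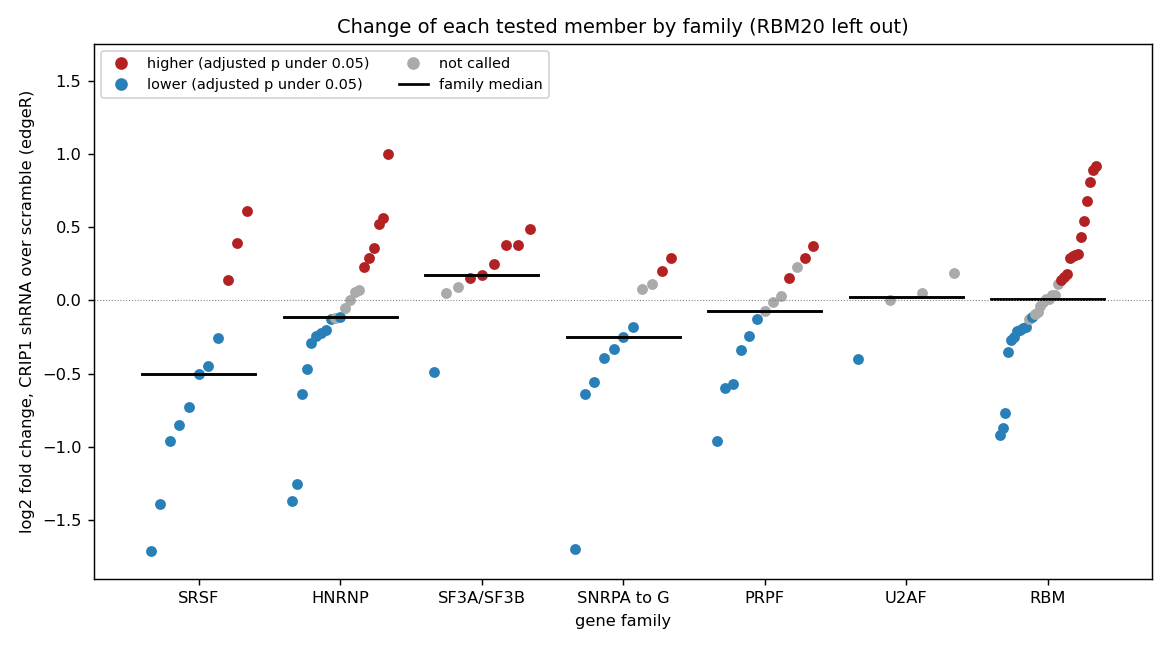
Log2 fold change (CRIP1 shRNA over scramble, edgeR) of each tested gene by family, with 1 point per gene, colour for the call at an adjusted p under 0.05, and a bar at the family median. SR genes sit mostly below 0 with a median of -0.50, SF3A and SF3B genes mostly above 0 with a median of 0.17, and RBM genes on both sides; RBM20, which had 2 counts over the scramble libraries, is not drawn.

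The promoters of 5 genes that recur below are shown here, as 200 bases before the start in RefSeq (GRCh38.p14). They were picked by hand, with the fold changes known, from genes that rose and genes that fell. Some other genes rose or fell further. HNRNPH2 (chrX:101408022-101408221, plus strand), HNRNPF (chr10:43408858-43409057, minus strand) and RBM42 (chr19:35628836-35629035, plus strand) rose, while SRSF3 (chr6:36594162-36594361, plus strand) and RBM38 (chr20:57391196-57391395, plus strand) fell. Capitals mark the CCAAT box (CCAAT, or ATTGG on the other strand), the ETS motif (CCGGAAG or CTTCCGG), the cAMP response element (TGACGTCA) and the E-box (CACGTG).
HNRNPH2: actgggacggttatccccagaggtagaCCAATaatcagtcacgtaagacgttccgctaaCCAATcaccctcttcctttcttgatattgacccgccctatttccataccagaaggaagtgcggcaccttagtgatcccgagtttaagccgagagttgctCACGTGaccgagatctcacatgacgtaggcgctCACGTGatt
HNRNPF: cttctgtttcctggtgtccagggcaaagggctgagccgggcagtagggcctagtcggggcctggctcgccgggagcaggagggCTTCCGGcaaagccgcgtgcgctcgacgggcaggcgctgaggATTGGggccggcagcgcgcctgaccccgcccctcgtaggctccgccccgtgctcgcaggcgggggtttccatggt
RBM42: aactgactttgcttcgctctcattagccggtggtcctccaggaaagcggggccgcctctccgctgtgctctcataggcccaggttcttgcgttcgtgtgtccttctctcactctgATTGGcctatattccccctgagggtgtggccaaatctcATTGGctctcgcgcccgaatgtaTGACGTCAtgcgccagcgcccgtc
SRSF3: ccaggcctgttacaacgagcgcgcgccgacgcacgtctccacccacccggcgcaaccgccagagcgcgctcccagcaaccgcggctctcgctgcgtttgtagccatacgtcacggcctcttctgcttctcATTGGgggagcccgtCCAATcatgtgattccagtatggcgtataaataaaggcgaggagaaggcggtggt
RBM38: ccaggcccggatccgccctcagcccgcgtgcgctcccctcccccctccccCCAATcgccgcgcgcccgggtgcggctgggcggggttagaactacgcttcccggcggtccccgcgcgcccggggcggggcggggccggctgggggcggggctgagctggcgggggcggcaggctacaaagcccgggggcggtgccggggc

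All 5 windows hold at least 1 CCAAT box, in genes that rose and in genes that fell. As the 5 were picked by hand, this is a description only. The windows of RBM18 and SRSF7, with log2 fold changes of 0.68 and -0.96, held none. Over the 93 tested genes matched to such a window, 43 (46.2%) held a CCAAT box, against 31.7% of the windows of 10383 genes. By call, it stood in 13 of 31 genes that rose (41.9%), 19 of 40 that fell (47.5%) and 11 of 22 not called (50%). The ETS motif stood in 25 windows (26.9%, against 14.8% of all), among them SF3A1, SF3A2, SF3A3, SF3B2, SF3B4 and SF3B6. That motif stood in 10 of the genes that rose (32.3%), 10 of those that fell (25%) and 5 not called (22.7%). The TGACGTCA element stood in 3 windows, RBM12, RBM18 and RBM42 (3.23%, against 2.75%). The E-box stood in 10 (10.8%, against 7.85%), and the TATA box (TATAAA) in 7 (7.53%, against 4.01%), SRSF3 and RBM47 included. By call, the E-box stood in 2 genes that rose (6.45%), 6 that fell (15%) and 2 not called (9.09%). The TATA box stood in 0 that rose, 5 that fell (12.5%) and 2 not called (9.09%). The GC box (GGGCGG), which can overlap other motifs, stood in 51 (54.8%, against 64.3%), and the GATA motif (AGATAA) in 0 (against 2.88%). By call, the GC box stood in 14 that rose (45.2%), 21 that fell (52.5%) and 16 not called (72.7%). Both strands were searched, and these are matches of letters, not binding sites.

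The SR protein genes fell with CRIP1 shRNA as far as SRSF1 to SRSF7 and SRSF9 are concerned. All 8 fell by edgeR, on TPM and without the GC trend, where 38.1%, 29.9% and 41% of all genes were called lower. The levels of these 8 genes summed to 1188, 1127 and 1163 TPM with CRIP1 shRNA, against 1975, 1912 and 1969 TPM with scramble. The sum stood at 59.4% of scramble. SRSF8, SRSF10 and SRSF11 rose by edgeR and on TPM, and summed to 352, 332 and 333 TPM with CRIP1 shRNA, against 226, 227 and 235 TPM with scramble. This division was made with the calls known, so that the separation of the 2 sums is a description only. All 12 SRSF genes together summed to 1541, 1459 and 1497 TPM with CRIP1 shRNA, against 2201, 2139 and 2204 TPM with scramble, or 68.7% of scramble.

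SRSF3 (gene 6428, chr6:36594353-36605600, GRCh38, plus strand), the smallest SR protein, is known for roles in splicing and in mRNA export. It had 87.1, 74.1 and 81.1 TPM in the CRIP1 shRNA libraries, against 256, 229 and 236 TPM in the scramble libraries. Every CRIP1 shRNA value lay far below every scramble value, and the fall was 3.27-fold (log2 fold change -1.71, SE 0.05, edgeR adjusted p = 4.38e-17). SRSF2 (gene 6427, chr17:76734115-76737374, minus strand), an exonic enhancer binder that is recurrently mutated in myeloid cancers, had 139, 144 and 147 TPM with CRIP1 shRNA, against 380, 392 and 387 TPM with scramble. It fell 2.62-fold, with a log2 fold change of -1.39 (SE 0.03, edgeR adjusted p = 3.38e-18). SRSF7, a close relative of SRSF3 with a zinc knuckle, had 211, 186 and 187 TPM with CRIP1 shRNA and 375, 356 and 363 TPM with scramble. Its log2 fold change was -0.96 (SE 0.04, edgeR adjusted p = 1.31e-14).

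The other falls were smaller. SRSF6 had 67, 67.3 and 69.5 TPM with CRIP1 shRNA against 109, 110 and 116 TPM with scramble, a log2 fold change of -0.85 (SE 0.04). SRSF1, the founding SR protein and a known proto-oncogene, had 134, 126 and 131 TPM against 194, 197 and 198 TPM with scramble, a log2 fold change of -0.73 (SE 0.03). SRSF4, SRSF9 and SRSF5 had log2 fold changes of -0.50, -0.45 and -0.26. SRSF9 was the most abundant SR gene over all libraries, with 322, 311 and 323 TPM in CRIP1 shRNA cells and 402, 376 and 405 TPM in scramble cells. In all 8 genes the 3 CRIP1 shRNA values lay below the 3 scramble values, as they did in 30.3% of all genes tested.

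Among the genes that rose, SRSF11, which encodes a U2AF-interacting SR protein, had 177, 160 and 164 TPM in CRIP1 shRNA cells, against 96.7, 92.8 and 95.5 TPM in scramble cells. Its log2 fold change was 0.61 (SE 0.04, edgeR adjusted p = 1.21e-11). SRSF8 had 19.1, 19.6 and 19.4 TPM with CRIP1 shRNA and 13.4, 13.5 and 13.6 TPM with scramble, a log2 fold change of 0.39 (SE 0.05). SRSF10, known as a splicing repressor once dephosphorylated, had 156, 152 and 150 TPM against 116, 121 and 125 TPM with scramble. Its log2 fold change was 0.14 by edgeR (adjusted p = 0.00178), and without the GC trend it was 0.01 (adjusted p = 0.715). SRSF12 was at 0 counts in all 6 libraries, which allows up to 3 counts per library by counting error alone. The 2 directions stand side by side in the plot of SR genes by library.

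**Figure D2:**
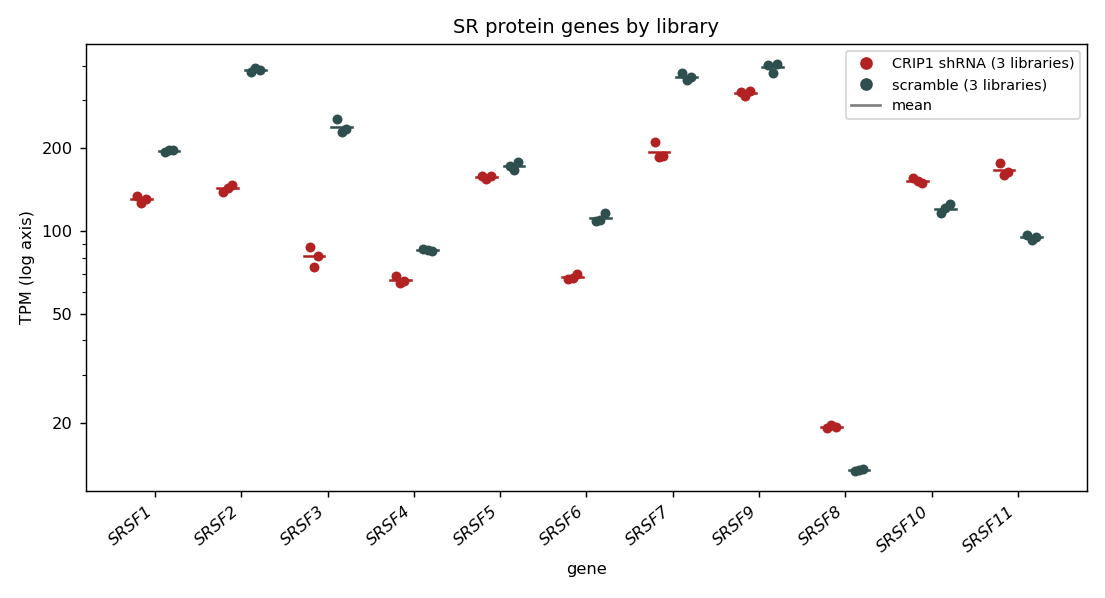
TPM (log axis) of the 11 tested SR protein genes in each library, with CRIP1 shRNA left of scramble, 1 point per library and a bar at the mean of 3. For SRSF1 to SRSF7 and SRSF9 every CRIP1 shRNA library lies below every scramble library, and for SRSF8, SRSF10 and SRSF11 every one lies above.

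Among the hnRNP genes, those of the H/F subfamily, whose proteins bind runs of G, all rose: HNRNPF, HNRNPH1, HNRNPH2 and HNRNPH3 were called higher under all 3 scalings. Their levels summed to 1821, 1677 and 1790 TPM with CRIP1 shRNA, against 1196, 1090 and 1128 TPM with scramble, a 1.55-fold difference with no overlap. The A/B genes summed to 2495, 2299 and 2425 TPM with CRIP1 shRNA, against 3344, 3000 and 3145 TPM with scramble. Of the 6 A/B genes, 4 fell and 0 rose by edgeR, while on TPM 2 fell and 1 rose, and without the GC trend 6 fell. Over all 21 tested hnRNP genes, 6 rose and 10 fell by edgeR, 9 rose and 6 fell on TPM, and 7 rose and 13 fell once the GC trend was taken out. On those scales 39.4%, 47.5% and 37.6% of all genes were called higher, and 38.1%, 29.9% and 41% lower.

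HNRNPH2 (gene 3188, chrX:101408295-101414133, plus strand), whose promoter stands above, had 339, 299 and 310 TPM in CRIP1 shRNA libraries, against 158, 132 and 143 TPM in scramble libraries. Its level was 1.99-fold higher, with a log2 fold change of 1.00 (SE 0.05, edgeR adjusted p = 5.75e-13), and part of its reads was shared with other genes. HNRNPF had 359, 367 and 381 TPM with CRIP1 shRNA and 229, 220 and 235 TPM with scramble, a log2 fold change of 0.56 (SE 0.04, edgeR adjusted p = 1.15e-11). HNRNPH3 had 341, 319 and 342 TPM against 219, 207 and 210 TPM with scramble, a log2 fold change of 0.52 (SE 0.04). HNRNPH1, the most abundant H/F gene, had 783, 692 and 757 TPM against 590, 531 and 540 TPM with scramble, a log2 fold change of 0.29 (SE 0.04). The 4 genes lie on 3 chromosomes, 5, 10 and X.

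The fall of the A/B genes came mainly from a pair of them. HNRNPA2B1 (gene 3181, chr7:26173057-26201529, minus strand), a binder of nuclear pre-mRNA that also takes part in RNA transport, had 583, 530 and 533 TPM with CRIP1 shRNA, against 1271, 1098 and 1174 TPM with scramble. It fell 2.38-fold (log2 fold change -1.25, SE 0.04, edgeR adjusted p = 5.72e-16). HNRNPA3 (gene 220988, chr2:177212563-177223958, plus strand), its relative, had 130, 105 and 116 TPM with CRIP1 shRNA and 264, 236 and 245 TPM with scramble, and fell 2.58-fold (log2 fold change -1.37, SE 0.05). HNRNPA1, a widely studied antagonist of SR proteins, differed far less. It had 1175, 1081 and 1169 TPM with CRIP1 shRNA and 1169, 1066 and 1119 TPM with scramble, which overlap. Its log2 fold change was -0.11 by edgeR (adjusted p = 0.015), 0.03 on TPM (limma adjusted p = 0.557) and -0.20 without the GC trend. HNRNPA1 and its near copy HNRNPA1L2, which can share reads, together had 1194, 1100 and 1188 TPM with CRIP1 shRNA and 1188, 1083 and 1137 TPM with scramble. HNRNPA0 was called higher on TPM (0.14) and lower without the GC trend (-0.14), so no direction is given for it. HNRNPAB fell by edgeR (-0.20), and its TPM did not differ past the threshold (adjusted p = 0.157).

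Among the other hnRNP genes, HNRNPM, a binder of GU-rich sequence, had 280, 275 and 276 TPM with CRIP1 shRNA, against 410, 383 and 387 TPM with scramble, a log2 fold change of -0.64 (SE 0.04, edgeR adjusted p = 1.37e-12). HNRNPR fell too, at -0.47 (SE 0.04). HNRNPU, a nuclear scaffold protein, had 475, 442 and 472 TPM with CRIP1 shRNA and 335, 319 and 333 TPM with scramble. It rose, at 0.36 (SE 0.03), while its relatives HNRNPUL1 and HNRNPUL2 fell, at -0.29 and -0.22, under all 3 scalings. HNRNPK, a binder of C-rich RNA, rose by 0.23. HNRNPC, HNRNPL and HNRNPLL were not called by edgeR, with values of 0.06, 0.07 and -0.05. On TPM HNRNPC (0.22) and HNRNPL (0.21) were called higher, and without the GC trend HNRNPL was called higher (0.14) and HNRNPLL lower (-0.22). HNRNPD and HNRNPDL, neighbours on chromosome 4, were called lower by edgeR (-0.24 and -0.13) and not on TPM (adjusted p = 0.0822 and 0.981). HNRNPCL4 had 3 counts in CRIP1 shRNA libraries and 2 in scramble libraries and was not tested.

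**Figure D3:**
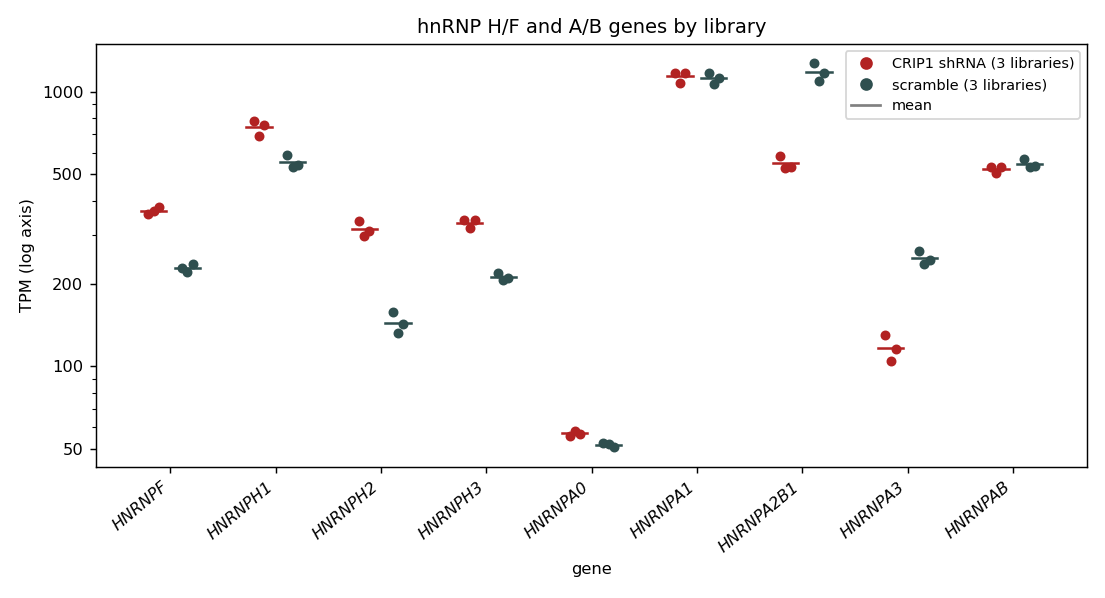
TPM (log axis) of the 4 hnRNP H/F genes and 5 A/B genes in each library, with CRIP1 shRNA left of scramble, 1 point per library and a bar at the mean of 3. The H/F genes lie higher in every CRIP1 shRNA library, HNRNPA2B1 and HNRNPA3 lie lower, and HNRNPA1 overlaps.

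The U2-associated SF3A and SF3B genes mostly rose. Of the 9, 6 rose and 1 fell by edgeR, and 8 rose and 1 fell both on TPM and without the GC trend, where 39.4%, 47.5% and 37.6% of all genes were called higher on those scales. The exception was SF3B1 (gene 23451, chr2:197389784-197435091, minus strand), the largest SF3B subunit, which clamps the branch site and is the subunit most often mutated in blood cancers. SF3B1 had 130, 119 and 127 TPM in the CRIP1 shRNA libraries, against 159, 153 and 164 TPM in the scramble libraries. The groups did not overlap, and the log2 fold change was -0.49 (SE 0.04, edgeR adjusted p = 9.85e-11).

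SF3B2, its partner and the most abundant of the 9, had 474, 481 and 469 TPM with CRIP1 shRNA, against 332, 329 and 334 TPM with scramble. It rose by 0.38 on the log2 scale (SE 0.03, edgeR adjusted p = 1.12e-09). SF3B6, the small subunit that contacts the branch site adenosine, had 396, 416 and 404 TPM against 232, 289 and 267 TPM with scramble, a log2 fold change of 0.49 (SE 0.06). SF3B4 had 438, 437 and 442 TPM against 335, 335 and 338 TPM with scramble, a log2 fold change of 0.25. SF3B3, a scaffold of the complex, rose by 0.15, with 75.4, 75.7 and 76.4 TPM against 65.7, 60.2 and 60.5 TPM with scramble. SF3B5 was not called by edgeR (0.09, adjusted p = 0.102), with 418, 449 and 429 TPM in CRIP1 shRNA cells and 365, 385 and 357 TPM in scramble cells. It was called higher on TPM (0.23) and without the GC trend (0.17).

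In the SF3A complex, which joins SF3B to U2, SF3A1 had 83.5, 90.3 and 86.9 TPM with CRIP1 shRNA, against 61, 59.7 and 62.2 TPM with scramble. Its log2 fold change was 0.38 (SE 0.04, edgeR adjusted p = 2.12e-08). SF3A3 rose by 0.17, with 149, 148 and 142 TPM against 121, 114 and 122 TPM with scramble. SF3A2 had 112, 117 and 117 TPM in CRIP1 shRNA cells and 105, 99.8 and 99 TPM in scramble cells. It was not called by edgeR (0.05, adjusted p = 0.291), and was called higher on TPM (0.19) and without the GC trend (0.11).

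**Figure D4:**
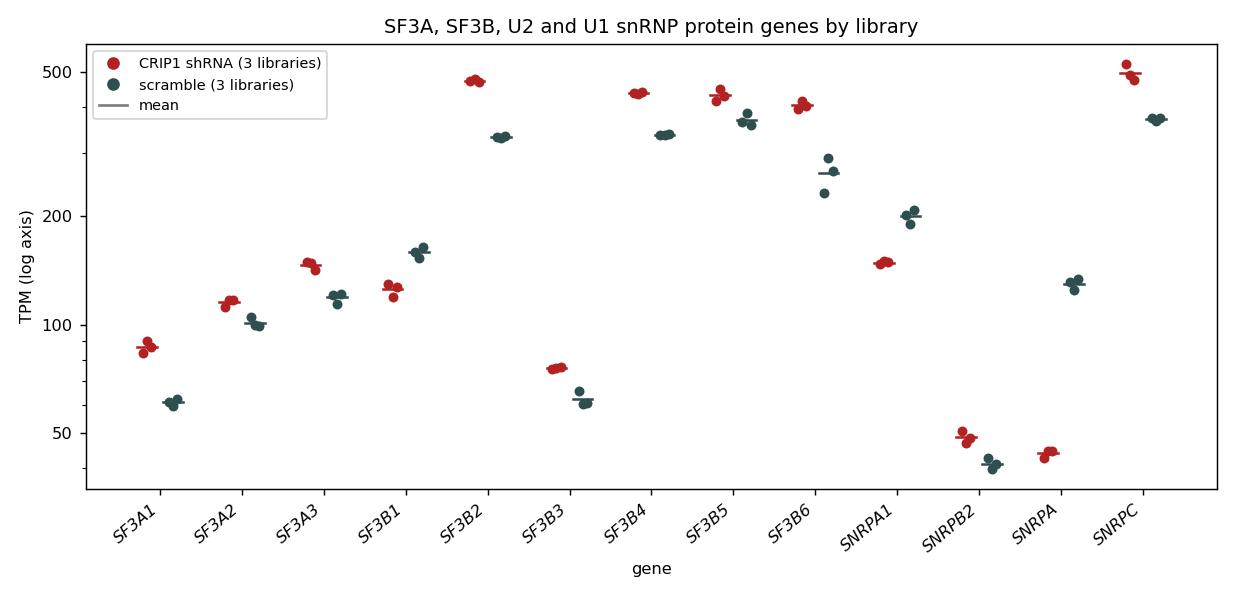
TPM (log axis) of the 9 SF3A and SF3B genes, the U2 genes SNRPA1 and SNRPB2 and the U1 genes SNRPA and SNRPC in each library. CRIP1 shRNA is left of scramble, with 1 point per library and a bar at the mean of 3. Among the SF3A and SF3B genes, all CRIP1 shRNA libraries lie below the scramble libraries for SF3B1, and above them for the other 8. SNRPA1 and SNRPA also lie below, and SNRPB2 and SNRPC lie above.

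The U2AF genes, which recognise the end of the intron, showed 1 change by edgeR. U2AF2, the large subunit that binds the polypyrimidine tract, had 145, 168 and 156 TPM with CRIP1 shRNA, against 185, 185 and 193 TPM with scramble. It fell under all 3 scalings, with a log2 fold change of -0.40 (SE 0.04, edgeR adjusted p = 8.09e-08). U2AF1, the small subunit that reads the terminal AG, had 507, 444 and 503 TPM with CRIP1 shRNA and 444, 422 and 456 TPM with scramble, which overlap (log2 fold change 0.00, edgeR adjusted p = 0.959); on TPM it was called higher (0.13, limma adjusted p = 0.0409). Its near-identical copy U2AF1L5 had 25.7, 81.2 and 37.9 TPM with CRIP1 shRNA and 56.1, 35.1 and 25.2 TPM with scramble, and how reads were divided between the copies was set by the authors' counting. Both copies together had 532, 525 and 541 TPM with CRIP1 shRNA and 501, 457 and 482 TPM with scramble. U2AF1L4 had 17.6, 18.6 and 17.8 TPM with CRIP1 shRNA and 16.6, 16.6 and 13.9 TPM with scramble, and was not called by edgeR (0.05, adjusted p = 0.762) but was called higher on TPM (0.19, limma adjusted p = 0.0327).

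In the U1 particle the 2 specific genes went opposite ways. SNRPA (gene 6626, chr19:40750637-40765389, plus strand), whose protein binds a loop of U1 RNA, had 42.7, 44.8 and 44.8 TPM in CRIP1 shRNA libraries, against 131, 125 and 134 TPM in scramble libraries. It fell 3.24-fold (log2 fold change -1.70, SE 0.05, edgeR adjusted p = 1.13e-16). SNRPC, whose protein helps U1 hold the start of the intron, had 527, 493 and 477 TPM with CRIP1 shRNA and 373, 366 and 373 TPM with scramble. It rose by 0.29 (SE 0.04, edgeR adjusted p = 1.75e-06). The third U1 protein gene, SNRNP70, is outside the symbol rule. It had 100, 104 and 99.4 TPM against 179, 184 and 183 TPM with scramble, and fell, at -0.98 (SE 0.04).

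Of the U2-specific genes, SNRPA1 fell, at -0.56 (SE 0.05), with 147, 150 and 149 TPM in CRIP1 shRNA cells and 201, 190 and 208 TPM in scramble cells. SNRPB2 was not called by edgeR (0.11, adjusted p = 0.0549), higher on TPM (0.24) and lower without the GC trend (-0.12). Among the 7 Sm ring genes, 5 fell and 1 rose by edgeR, 3 fell and 2 rose on TPM, and 5 fell and 0 rose once the GC trend was taken out. On those scales 38.1%, 29.9% and 41% of all genes were called lower, and 39.4%, 47.5% and 37.6% higher. SNRPD2, the most abundant Sm ring gene, had 1022, 915 and 926 TPM with CRIP1 shRNA, against 1346, 1290 and 1407 TPM with scramble. Its log2 fold change was -0.64 (SE 0.04, edgeR adjusted p = 1.12e-11). SNRPB and SNRPE fell under all 3 scalings, at -0.39 and -0.33. SNRPG rose by edgeR, with 762, 742 and 902 TPM in CRIP1 shRNA cells and 637, 625 and 644 TPM in scramble cells. Its log2 fold change was 0.20 (adjusted p = 0.00216), and 0.03 without the GC trend (adjusted p = 0.593).

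Of the 13 PRPF genes, 3 rose and 6 fell by edgeR, 5 rose and 5 fell on TPM, and 3 rose and 8 fell without the GC trend. Most of the falls by edgeR were in the tri-snRNP, where 4 of 5 genes fell and 1 rose under all 3 scalings. Over all genes, 39.4% rose and 38.1% fell by edgeR, 47.5% and 29.9% on TPM, and 37.6% and 41% without the GC trend. PRPF8 (gene 10594, chr17:1650629-1684882, minus strand), the U5 protein that cradles the catalytic centre, had 56.4, 58.4 and 57.5 TPM with CRIP1 shRNA, against 104, 98.9 and 103 TPM with scramble. It fell 1.95-fold, with a log2 fold change of -0.96 (SE 0.04, edgeR adjusted p = 1.63e-15). The U4 and U6 proteins PRPF31, PRPF3 and PRPF4 fell as well. PRPF31 had 65.4, 73.8 and 64.3 TPM against 99.2, 90 and 91.7 TPM with scramble, a log2 fold change of -0.60 (SE 0.06). PRPF3 had 75.8, 70.2 and 70.6 TPM against 99.2, 95.5 and 94.2 TPM with scramble, at -0.57 (SE 0.04), and PRPF4 stood at -0.34. PRPF6, which bridges U5 to U4 and U6, rose, with 109, 115 and 113 TPM in CRIP1 shRNA cells and 85.4, 81.6 and 83.3 TPM in scramble cells (log2 fold change 0.29, SE 0.04).

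Outside the tri-snRNP, PRPF19, the ubiquitin ligase of the complex that activates the spliceosome, had 196, 214 and 204 TPM with CRIP1 shRNA and 146, 142 and 144 TPM with scramble. It rose by 0.37 (SE 0.04, edgeR adjusted p = 4.22e-08). PRPF38B rose by edgeR (0.15), but not without the GC trend (0.02, adjusted p = 0.616). PRPF4B, a kinase of the spliceosome, fell by edgeR (-0.24) and was not called on TPM (adjusted p = 0.0746). PRPF18, a factor of the second catalytic step, fell, at -0.13 on counts and -0.27 on TPM, with 33.6, 31 and 33.6 TPM in CRIP1 shRNA cells and 41.8, 38.6 and 38.3 TPM in scramble cells. PRPF38A, PRPF39 and PRPF40B were not called by edgeR, with values of -0.07, -0.01 and 0.23. PRPF40B was called higher on TPM (0.32) and without the GC trend (0.32). Without that trend PRPF38A (-0.23) and PRPF39 (-0.15) were called lower.

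The 36 RBM genes were mixed: 14 rose, 11 fell and 10 were not called among 35 tested by edgeR. On TPM 18 rose and 6 fell, and without the GC trend 12 rose and 14 fell. In the subset of 14 with known roles in the spliceosome or its regulation, 4 rose and 6 fell by edgeR, 7 rose and 3 fell on TPM, and 6 rose and 6 fell without the GC trend. The shares of all genes called higher on those scales were 39.4%, 47.5% and 37.6%, and the shares called lower 38.1%, 29.9% and 41%. RBM42 (gene 79171, chr19:35629030-35637686, plus strand), a tri-snRNP-associated protein whose promoter stands above, had 235, 243 and 238 TPM with CRIP1 shRNA, against 124, 110 and 115 TPM with scramble. It rose 1.86-fold (log2 fold change 0.89, SE 0.04, edgeR adjusted p = 2.19e-13). RBM4 (gene 5936, chr11:66638617-66668374, plus strand), a regulator of alternative splicing and translation, had 331, 315 and 319 TPM against 177, 160 and 152 TPM with scramble, a log2 fold change of 0.81 (SE 0.04). RBM4 overlaps the read-through gene RBM14-RBM4, and both together had 349, 340 and 340 TPM with CRIP1 shRNA and 196, 177 and 167 TPM with scramble.

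RBM5 and RBM6, overlapping neighbours on chromosome 3 and regulators of alternative splicing, went apart: RBM5 rose by 0.32 and RBM6 fell, at -0.21, each under all 3 scalings. RBM5 had 70.2, 67.5 and 67.3 TPM with CRIP1 shRNA and 48.1, 46.7 and 49.5 TPM with scramble, while RBM6 had 35.5, 32.9 and 32.4 TPM with CRIP1 shRNA and 37.9, 35.2 and 37.5 TPM with scramble. No strand setting is given, and how the reads of the shared stretch were divided is not known. Their relative RBM10 fell, at -0.25, and so did RBM17, at -0.35, a factor that binds SF3B1. RBM39, a U2AF2-related protein, fell by edgeR (-0.11) and was not called on TPM (adjusted p = 0.368), with 234, 227 and 226 TPM in CRIP1 shRNA cells and 222, 222 and 228 TPM in scramble cells.

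RBM8A, the Y14 subunit of the exon junction complex that is left on spliced mRNA, had 182, 183 and 187 TPM with CRIP1 shRNA, against 116, 116 and 115 TPM with scramble. It rose by 0.54 (SE 0.03, edgeR adjusted p = 4.48e-12). RBM18 had 47.2, 45.4 and 46.6 TPM against 24.2, 27.7 and 25 TPM with scramble, and rose by 0.68 (SE 0.05). RBM43 had 8.85, 8.13 and 9.61 TPM with CRIP1 shRNA and 4.6, 4.27 and 3.94 TPM with scramble, and rose by 0.92 (SE 0.09). RBM3, a protein induced by mild cold, was called higher by edgeR (0.14) and not without the GC trend (adjusted p = 0.148). RBM15 and RBM15B, of the complex that writes m6A, were not called by edgeR, with values of -0.13 and 0.01.

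RBM38 (gene 55544, chr20:57391407-57409333, plus strand), a p53 target that binds and regulates mRNA stability, had 49.9, 54.1 and 52.9 TPM with CRIP1 shRNA, against 90.3, 89.5 and 90.3 TPM with scramble. It fell 1.89-fold, with a log2 fold change of -0.92 (SE 0.04, edgeR adjusted p = 1.19e-13). RBM47, a cofactor of APOBEC1 in C-to-U editing, had 10.9, 10.8 and 12 TPM against 17.5, 19 and 18.9 TPM with scramble, and fell, at -0.87 (SE 0.06). RBM19, a nucleolar protein of ribosome assembly, had 15.4, 14.2 and 15.4 TPM against 24, 21.5 and 22.7 TPM with scramble, and fell, at -0.77 (SE 0.06). RBM20, the regulator of titin splicing in heart and muscle, was barely detected, with 69 counts over the CRIP1 shRNA libraries and 2 over the scramble libraries. The ratio of counts scaled to library totals was 33.4 (exact 95% interval 8.92 to 282, counting error only), at 0.33, 0.35 and 0.31 TPM with CRIP1 shRNA. RBM44 had 11 counts in CRIP1 shRNA libraries and 42 in scramble libraries and was not tested.

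Other genes of the splicing pathway, taken from 5 lists outside the symbol rule, were mixed too. Of 53 other genes of the spliceosome and of snRNP assembly, with the snoRNP protein gene NHP2 among them, 19 rose and 27 fell by edgeR. On TPM 21 rose and 20 fell, and without the GC trend 15 rose and 26 fell. Over all genes, 39.4% rose and 38.1% fell by edgeR, 47.5% and 29.9% on TPM, and 37.6% and 41% without the GC trend. PLRG1 of the PRPF19 complex rose, with 213, 197 and 205 TPM in CRIP1 shRNA cells and 88.2, 86.3 and 88.1 TPM in scramble cells (log2 fold change 1.09). SYF2, a factor that joins the same assembly, rose by 1.07, and the helicase DDX46, which acts with SF3B, fell, at -0.82. Of 12 genes listed as kinases, a phosphatase and importers of SR proteins, with the scaffold attachment factors SAFB and SAFB2 among them, 5 rose and 5 fell. SRPK1, the cytoplasmic SR kinase, had 80.4, 71.2 and 72.1 TPM with CRIP1 shRNA, against 98.2, 93.3 and 96.6 TPM with scramble, and fell, at -0.50. The nuclear kinase DYRK1A rose by 0.48 and the import receptor TNPO1 by 0.63, while the phosphatase PPP1CA fell, at -0.41.

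Of 18 SR-related genes, 9 rose and 6 fell by edgeR, 11 rose and 4 fell on TPM, and 7 rose and 9 fell once the GC trend was taken out. On those scales 39.4%, 47.5% and 37.6% of all genes were called higher, and 38.1%, 29.9% and 41% lower. The U1-associated relatives LUC7L2 and LUC7L went apart, at 0.74 and -0.75, SCAF1 rose by 0.50 and TRA2A, a sequence-specific activator, fell, at -0.55. Of 33 tested other regulators, 15 rose and 14 fell. RBMX, an X-linked hnRNP outside the symbol rule, had 204, 205 and 205 TPM with CRIP1 shRNA, against 424, 426 and 434 TPM with scramble, and fell, at -1.20 (SE 0.03). RALY, a relative of HNRNPC, fell, at -0.49, and RBMS1 rose by 0.95. ESRP1, the epithelial splicing regulator, had 50.9, 49.7 and 50.3 TPM with CRIP1 shRNA, against 1.02, 1.16 and 1.34 TPM with scramble. It rose by 5.30 on the log2 scale (SE 0.08, edgeR adjusted p = 2.71e-21), beside the epithelial markers given above.

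Of 15 genes of the exon junction complex and of nonsense-mediated decay, 9 rose and 2 fell by edgeR, 13 rose and 1 fell on TPM, and 8 rose and 4 fell once the GC trend was taken out, where 39.4%, 47.5% and 37.6% of all genes were called higher. EIF4A3, the helicase that anchors the complex and the partner of RBM8A, had 291, 327 and 295 TPM with CRIP1 shRNA, against 150, 168 and 161 TPM with scramble. It rose by 0.78 (SE 0.04, edgeR adjusted p = 1.83e-12). SMG6, the endonuclease of the decay pathway, rose by 0.87. SMG5, which acts in the same pathway, fell, at -0.67.

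The counts and FPKM values together imply an average transcript length for each gene in each library, which moves when the mix of isoforms that the authors' software assigned moves. It could be computed for 98 of the genes, those at 10 TPM or more in every library. The groups did not overlap for 22 of them (22.4%), against 23.1% of 7355 genes. By over 0.1 on the log2 scale, 4 differed (4.08%, against 4.3%): PRPF18, SRSF2, HNRNPA3 and RBM41 (0.11). The implied lengths of RBM41 overlapped between groups. The set as a whole thus lay near the background. PRPF18 had implied lengths of 2326, 2188 and 2208 bases with CRIP1 shRNA, against 1827, 1847 and 1881 bases with scramble, a log2 difference of 0.27. SRSF2 had 2170, 2060 and 2077 bases with CRIP1 shRNA, against 1874, 1865 and 1849 bases with scramble, a log2 difference of 0.17. HNRNPA3 was shorter with CRIP1 shRNA, at 3959, 4084 and 4030 bases, against 4395, 4502 and 4458 bases with scramble, a log2 difference of -0.15. SRSF3, with the largest fold decrease in level of the tested genes, had a log2 difference in implied length of -0.00. These are products of the authors' isoform model and not counts of splice junctions, and these genes were named after their values were seen.

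**Figure D5:**
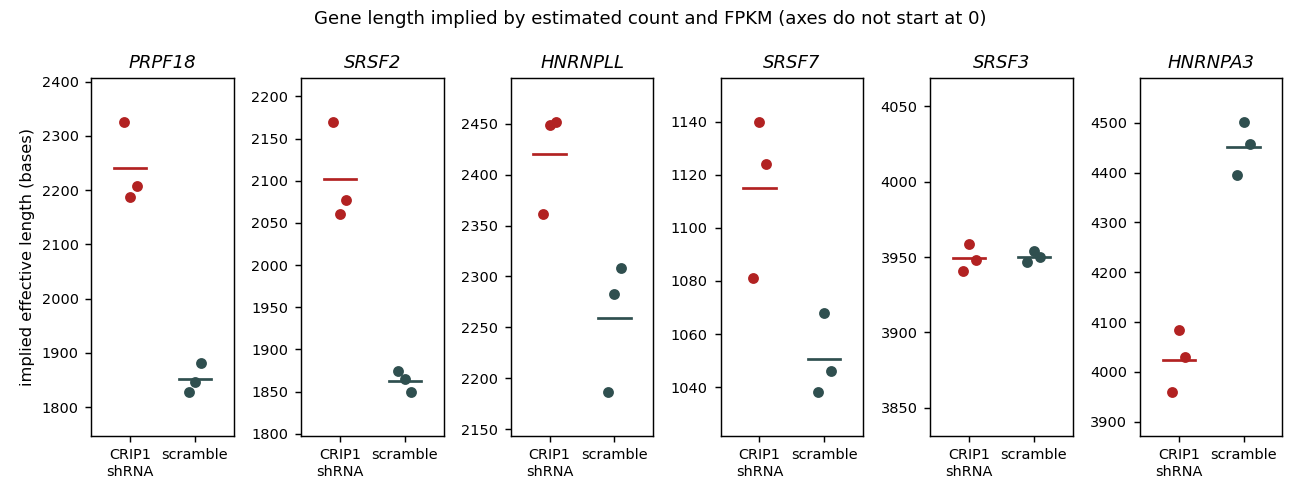
Implied average transcript length in bases of PRPF18, SRSF2, HNRNPLL, SRSF7, SRSF3 and HNRNPA3, with CRIP1 shRNA left of scramble, 1 point per library and a bar at the mean of 3; the axes do not start at 0. PRPF18, SRSF2, HNRNPLL and SRSF7 lie higher and HNRNPA3 lies lower in every CRIP1 shRNA library, while SRSF3 overlaps.

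In the GENCODE 29 annotation, 54 of the 104 tested genes (51.9%) have a transcript of the nonsense-mediated decay type, against 43.1% of all genes tested, and 63 (60.6%) have a retained-intron transcript, against 57.4%. All 11 tested SR genes have a decay transcript, those that fell and those that rose. The median GC content was 48.4% for the 104 genes and 49.7% for all genes, 45.5% for the genes that rose and 49.3% for those that fell. Across the genes, which are not independent replicates and share the same 6 libraries, log2 fold change and GC content had a Pearson's r of -0.05 and a Spearman's rho of -0.12 (n = 104), against -0.06 and -0.16 across all genes. In 29 of the 107 genes the estimated counts were fractional, so part of their reads was shared with another gene.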

How the data were processed

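RNA sequencing of 6 KMS11 libraries was made with a SMARTer mRNA kit, per the labels. The authors deposited estimated counts (expected counts), FPKM and TPM for each gene and library, per the file headers. FPKM is scaled by length and library total, and TPM also to a common sum. The submitters' processing notes list RSEM 1.2.8, Bowtie2 2.2.5 and HISAT2 2.1.0, and GRCh38.p13, with no roles. The annotation and a strand setting are not given in the sources used here.

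Rounded counts entered edgeR 4.0.16 (R 4.3.3; filterByExpr with a minimum count of 10, TMM, group alone, quasi-likelihood test, Benjamini-Hochberg over 12612 genes, threshold 0.05). Fold changes are CRIP1 shRNA over scramble, with the SE taken as log2 fold change over root F. Alternatives were limma 3.58.1 on log2(TPM + 1) with TPM of at least 1 in 3 libraries, the same on FPKM, with a pseudocount of 0.1 or no filter, DESeq2 1.42.0 and its size factors, upper-quartile scaling, other count filters, a prior count of 0.5, a 1.2-fold test, the replicate block, each library left out, and a GC trend removed per library by loess (span 0.5), with the overall level kept. GC content, transcript types and gene positions come from GENCODE 29, and promoters from RefSeq. Implied length is the count divided by FPKM and by the library total, an addition made after the data were seen. The fit was tested on simulated data. Precision is set by depth and by a common biological coefficient of variation of 3.33% (edgeR). Libraries of 1 group differed by more than sampling noise (mean chi-square per gene 1.62 to 4.15), so none was treated as a repeat of another; this does not show separate cultures.

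Genes, gene lists and role groups were chosen with earlier results of these data known. Genes named by rule are CRIP1, per family the most abundant gene, the 3 higher and 3 lower with the smallest adjusted p and the largest called fold, the 8 largest rises and falls, all SF3A, SF3B and U2AF genes, and 2 per direction from each list. Other genes were named after their values were seen, to complete the families. A few genes are not reported here.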

Additional observations from a re-analysis of the deposited data

How the results depend on the processing

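Over the 104 genes, the counts stayed within 1.5 times of 34 higher and 44 lower under each alternative except the following: against a 1.2-fold change 17 were higher and 25 lower, and with 1 more character required after the symbol prefix, which leaves 74 genes, 20 were higher and 27 lower. Leaving out each library in turn gave 32 to 36 higher and 43 to 46 lower. The DESeq2 Wald test gave 32 and 44, and upper-quartile scaling 41 and 41. Replicate numbers do not pair the libraries: deviations of same-numbered libraries correlated at 0.0455, -0.00877 and -0.0133, and 1 of 3 numbers matched best with itself. With the replicate number as a block, 34 were higher and 46 lower. HNRNPA1 was at 0.03 with limma on log2(TPM + 1), with or without the filter, and on log2(TPM + 0.1), and U2AF1L5 ranged over -0.44 to 0.55 with each library left out, the lowest (edgeR adjusted p = 0.0326) without CRIP1 shRNA replicate 2, while without CRIP1 shRNA replicate 1 it was called higher (0.50, adjusted p = 0.0354). The cause was not tested. The call of HNRNPA1 was also lost without CRIP1 shRNA replicate 2 and without scramble replicate 1. With 3 libraries per group, small changes near the threshold remain uncertain.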
